A study of Homo sapiens with 16 samples.

Results

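The genes described here are 50 genes of mitosis and of the G2/M part of the cell cycle, chosen by name from the 28207 human genes counted in U2OS cells, a human osteosarcoma cell line. All 50 had reads, and 45 reached the mean of at least 50 CPM (reads per 1000000 reads assigned to human genes) at which a gene was tested. AURKB, CENPA, HMMR, NUF2 and TTK did not. Total RNA, extracted with Trizol, was sequenced in 16 libraries that fall into 8 groups of 2 replicates. The labels name each group, in the genotype field, by a number (zdna1, zdna2, zdna3 or zdna4) and an arm (CC or CL), and spell out neither. Neither arm is therefore treated as the control, and every difference between arms is CL relative to CC. In the series title stand the transcription factor MYC, the histone chaperone FACT and Z-DNA, and the design text lists the 4 numbers in both arms. The cells carry the label U2OS alone: no treatment, time or clone is given in the sources used here, nor whether replicates are separate cultures, so p-values measure the spread between these libraries, which may be technical.

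Cells make the proteins of mitosis in a wave late in the cycle. CDK1 bound to B-type cyclins starts mitosis, and the Polo and Aurora kinases and the kinesins build the spindle. The checkpoint proteins hold back separation of the sister chromatids until every kinetochore is attached, and the anaphase-promoting complex with CDC20 then releases them. The genes are held off in resting and G1 cells by the DREAM complex and switched on in G2 by MuvB with MYBL2 and FOXM1. The MuvB subunit LIN54 binds a short promoter element, the cell cycle homology region (CHR), and the factor NF-Y binds CCAAT boxes nearby. In a cell line the summed level of these genes is widely used as a sign of proliferation. In bulk RNA, a larger share of cells in G2 and mitosis cannot be told apart from more of these RNAs per cell.

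Promoter sequences are shown first for 6 members named in the results below, because most matched members hold these elements and the element was not used to choose the members. RefSeq windows of 300 bases (build GRCh38.p14, from 250 before to 50 after the transcription start) were found for 43 of the 50 members, in 51 windows. The letters searched were TTTGAA for the CHR (TTCAAA on the other strand) and CCAAT for the NF-Y box (ATTGG on the other strand). Capitals mark the matches in the sequences, which run 5′ to 3′ on the gene's strand from 100 bases before the start to the 30th base after it. The single run of 10 capitals in MKI67 is a CHR and an NF-Y box that overlap. CCNB2 and PLK1 show both elements, MKI67 is the most abundant member, and KIFC1 and CKAP2L are the members that differed between the arms of zdna4. ASPM and CENPF, which limma called in CL over zdna1, zdna2 and zdna3, are not printed. Their TTTGAA matches, on either strand, began 113 bases before the start (ASPM) and 40 bases after it (CENPF), outside such a stretch. CCNB1 is the member whose differences between arms were unequal. Its window has no TTTGAA on either strand, and other spellings of the CHR were not searched, so the element may still be present.
CCNB2: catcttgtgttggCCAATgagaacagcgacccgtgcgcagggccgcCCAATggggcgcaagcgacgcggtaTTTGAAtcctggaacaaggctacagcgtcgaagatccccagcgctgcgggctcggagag
PLK1: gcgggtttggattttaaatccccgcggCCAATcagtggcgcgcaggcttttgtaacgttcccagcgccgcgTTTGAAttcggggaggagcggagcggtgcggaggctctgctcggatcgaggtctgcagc
MKI67: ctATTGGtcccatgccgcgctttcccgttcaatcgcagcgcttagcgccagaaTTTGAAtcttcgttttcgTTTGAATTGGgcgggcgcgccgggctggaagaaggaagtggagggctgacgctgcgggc
CKAP2L: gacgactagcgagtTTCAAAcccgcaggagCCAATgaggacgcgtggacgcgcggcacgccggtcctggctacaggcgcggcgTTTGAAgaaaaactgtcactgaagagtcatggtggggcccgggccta
KIFC1: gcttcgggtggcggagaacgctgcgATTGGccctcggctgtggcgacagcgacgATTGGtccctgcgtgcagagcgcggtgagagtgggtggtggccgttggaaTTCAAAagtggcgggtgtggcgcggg
CCNB1: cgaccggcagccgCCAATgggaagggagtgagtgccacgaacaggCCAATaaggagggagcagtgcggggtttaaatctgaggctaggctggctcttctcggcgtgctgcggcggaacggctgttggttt

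In GRCh38.p14 these stretches lie at chr15:59105046-59105175, plus strand (CCNB2), chr16:23678789-23678918, plus strand (PLK1), chr10:128126394-128126523, minus strand (MKI67), chr2:112764580-112764709, minus strand (CKAP2L), chr6:33391723-33391852, plus strand (KIFC1) and chr5:69167050-69167179, plus strand (CCNB1), each made of the flank before the gene and its first transcribed bases. The CHR began 29 bases before the start in CCNB2 and in PLK1, and 4 bases after it in KIFC1. CHR letters were present in 36 of the 51 member windows (70.6%) and in 15.2% of 35116 windows of the same length over all genes. By gene this was 34 of the 43 matched members (79.1%) against 18.2% of 27305 genes; the 9 members without the letters were AURKB, BUB1, CCNB1, CDC25B, CENPE, CKAP2, KIF20A, KIF2C and NCAPH. NF-Y box letters were present in 33 of the 43 members (76.7%) against 39.7% of all genes, and both elements in 27 members (62.8%) against 7.26%. A match of letters is a description of the window, and its absence covers only the letters searched. Binding was not measured here.

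**Figure D1:**
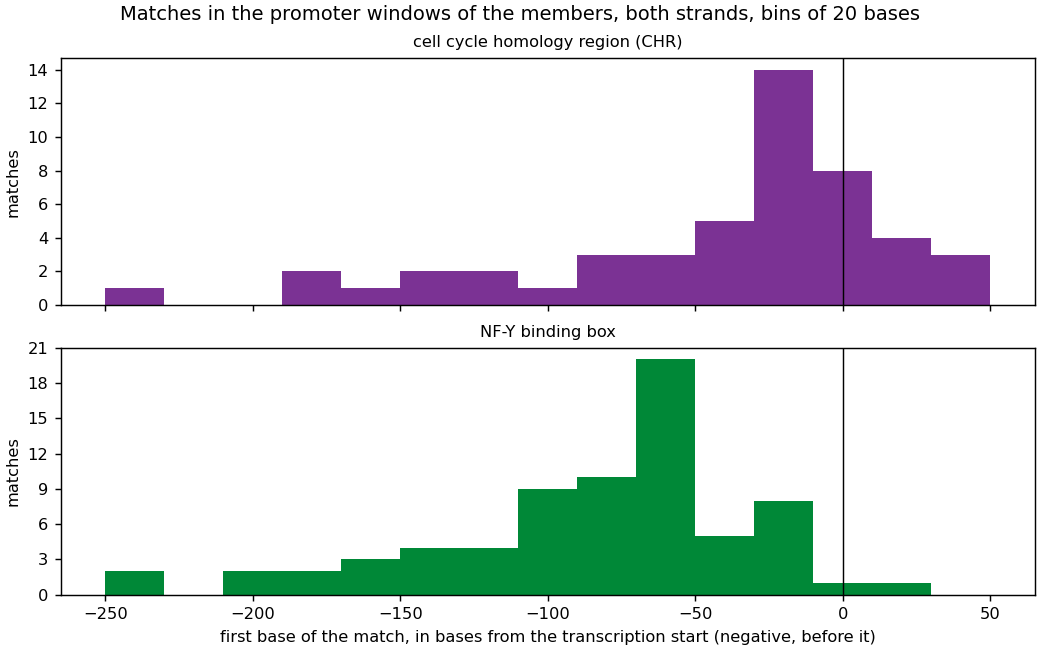
Number of matches to the CHR (top) and to the NF-Y box (bottom), on either strand, by distance in bases from the transcription start, in the 51 promoter windows of the 43 matched members; bars are bins of 20 bases. Of 49 CHR matches 22 began in the 50 bases before the start, and of 71 NF-Y box matches 37 began 100 to 51 bases before it.

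Levels are given in CPM. The libraries were shallow, with 39335 to 310187 human-gene reads, so 1 read stood for 3.22 to 25.4 CPM, and 42 of the 50 members had at least 1 read in every library. Where a library is at 0, a count of 3 reads gives the upper limit, from 9.67 CPM in the deepest library to 76.3 CPM in the shallowest; limits and intervals cover counting error only. The zdna4 CC libraries were the shallowest (39335 and 40886 reads) and stood apart. There, 401 olfactory receptor genes, normally expressed in the nose, summed to 1449 and 1492 CPM there and to 55.3 to 396 CPM in the other 14 libraries. Read density over those genes would account for 8.74% and 8.55% of the members' reads in zdna4 CC, and for at most 2.42% elsewhere. The zdna4 CL libraries were the deepest (310187 and 225177 reads). Of 9 osteoblast-lineage markers only COL1A1 (616 to 1149 CPM) and SPARC (458 to 1057 CPM) were abundant, in every library. The others were low or absent. Over all 16 libraries RUNX2 had 55 reads, ALPL 15, COL1A2 10, SPP1 7 and SP7 1, while BGLAP and IBSP had no reads. Of 9 markers of other cell types CD3E had no reads and the highest single value was 50.8 CPM (KRT5), and their sum was highest in zdna4 CC, 112 ± 20.7 CPM (mean ± SD, n = 2), against group means of 12.5 to 50.03 CPM elsewhere.

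The 50 genes together were highest in the CL libraries of zdna4. Their summed level was 12422 and 12372 CPM in the zdna4 CL replicates and lay between 7169 and 8805 CPM in the other 14 libraries. By group the means (± SD, n = 2) were 12397 ± 34.7 CPM in zdna4 CL, 8585 ± 312 in zdna4 CC, 8198 ± 45.9 in zdna2 CC, 8177 ± 274 in zdna1 CL, 8084 ± 235 in zdna3 CL, 7841 ± 127 in zdna3 CC, 7708 ± 281 in zdna1 CC and 7236 ± 93.9 in zdna2 CL. The step from zdna4 CL to the group after it was larger than any spread between replicates, whereas from zdna2 CC down to zdna1 CC the libraries of neighbouring groups overlapped. Both zdna4 CC libraries lay above both zdna2 CC libraries, though a zdna1 CL library (8371 CPM) reached past the lower of them (8364 CPM), and both zdna2 CL libraries were the lowest. The ratio of CL to CC was 1.06 in zdna1, 0.883 in zdna2, 1.03 in zdna3 and 1.44 in zdna4. In zdna2 both CL libraries were below both CC libraries. No test was made of the sums, since the genes were chosen with earlier results known and an exact permutation test of 2 against 2 cannot go below p = 0.333.

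The size of the zdna4 ratio depended on the scale. Over the reads of tested genes alone the groups stood at 14975 ± 56.2 CPM in zdna4 CL and 11467 ± 553 CPM in zdna4 CC (SD, n = 2), a ratio of 1.31. The other groups lay between 8591 and 9812 CPM. On this scale zdna4 CC was the second highest group. The deposited scale multiplies the reads of each library by 1 constant, whose origin is not given in the sources used here. On that scale the ratio was 1.74 in zdna4 and 1.88 in zdna3, where it was 1.03 in CPM.

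**Figure D2:**
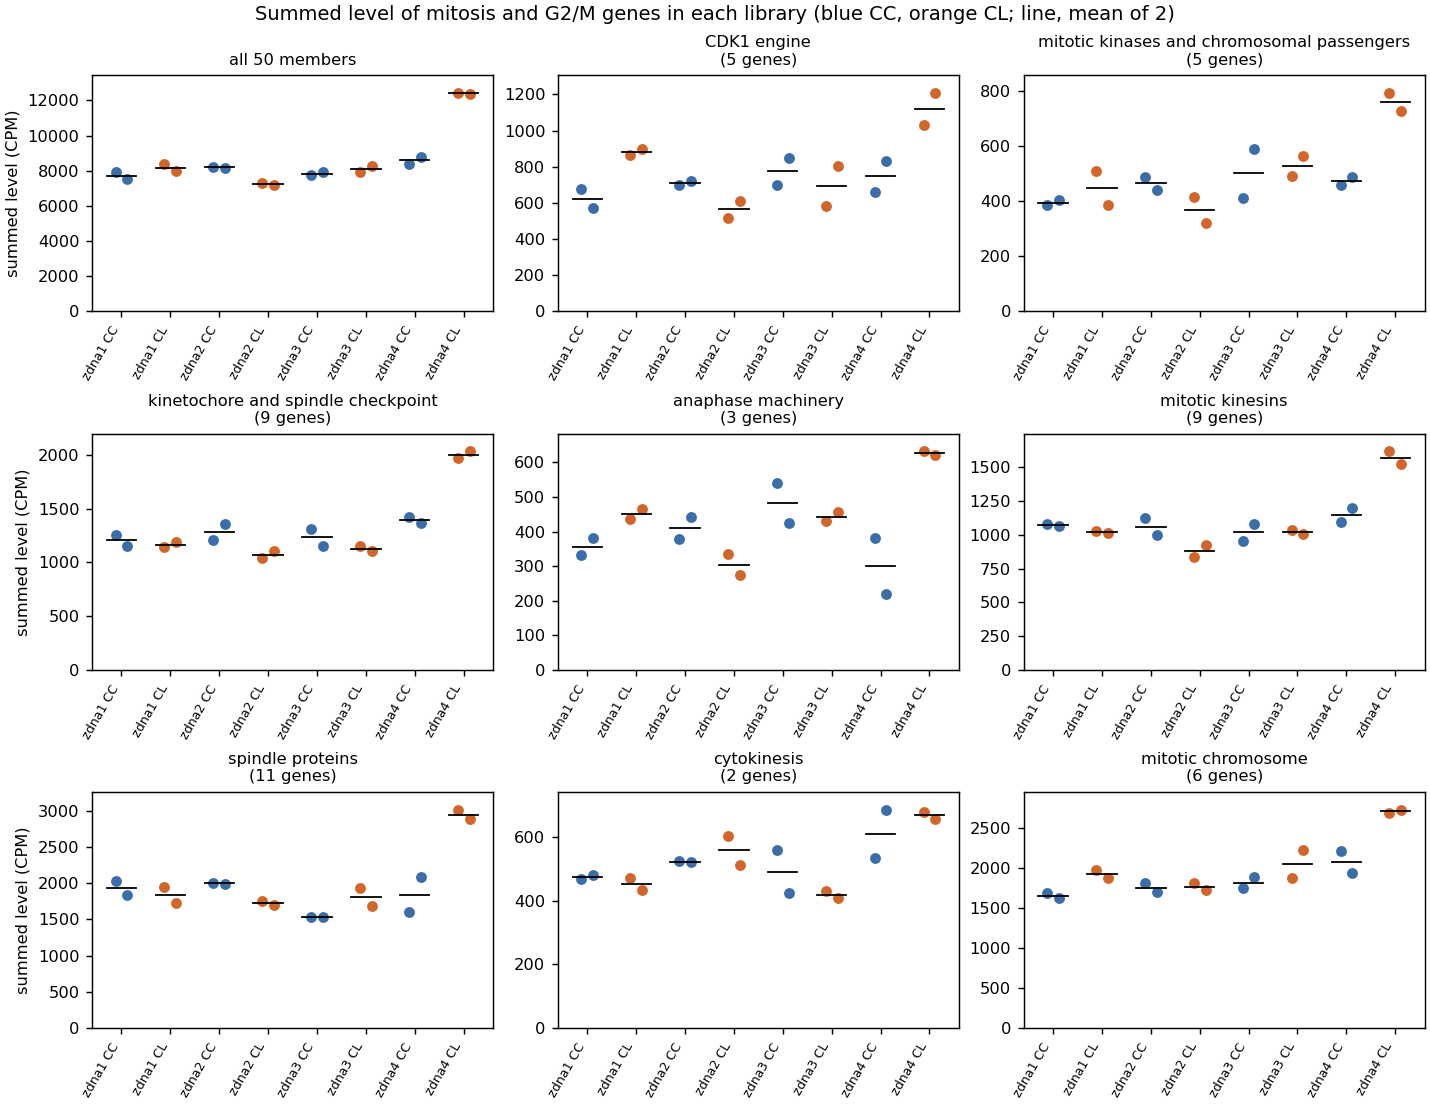
Summed level in CPM of all 50 genes (top left) and of the 8 role groups in each of the 16 libraries, by number and arm; points are libraries (blue CC, orange CL), lines are means of 2, and every axis starts at 0. The zdna4 CL libraries, at 12372 and 12422 CPM, are above the other 14 in the sum of all 50 genes.

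In 7 of the 8 roles both zdna4 CL libraries had a higher summed level than both zdna4 CC libraries. The summed level in zdna4 CL over zdna4 CC was 2.08 times for the anaphase machinery, 1.61 for the mitotic kinases and chromosomal passengers, 1.60 for the spindle proteins, 1.5 for CDK1 and its partners, 1.43 for the kinetochore and checkpoint genes, 1.37 for the kinesins and 1.30 for the mitotic chromosome genes. For the cytokinesis genes the ratio was 1.09, and a zdna4 CC library (685 CPM) was above both zdna4 CL libraries (677 and 657 CPM). In zdna2 the same ratios ran from 0.740 (anaphase machinery) to 1.07 (cytokinesis). By group mean, 38 of the 50 genes were highest in zdna4 CL, and none was lowest there. The group in which most genes were lowest was zdna2 CL (15), followed by zdna4 CC (11). These counts by group mean were made for the members alone, so how far they depart from all genes is not known. Both zdna4 CL libraries were above all 14 others for 18 of the 45 tested members, against 105 of 4632 tested genes (2.27%). They were MKI67, PLK1, AURKA, CENPE, CENPF, KIFC1, KIF18B, KIF20A, ASPM, CKAP2, CKAP2L, TPX2, DLGAP5, GTSE1, INCENP, ESPL1, NDC80 and FOXM1.

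**Figure D3:**
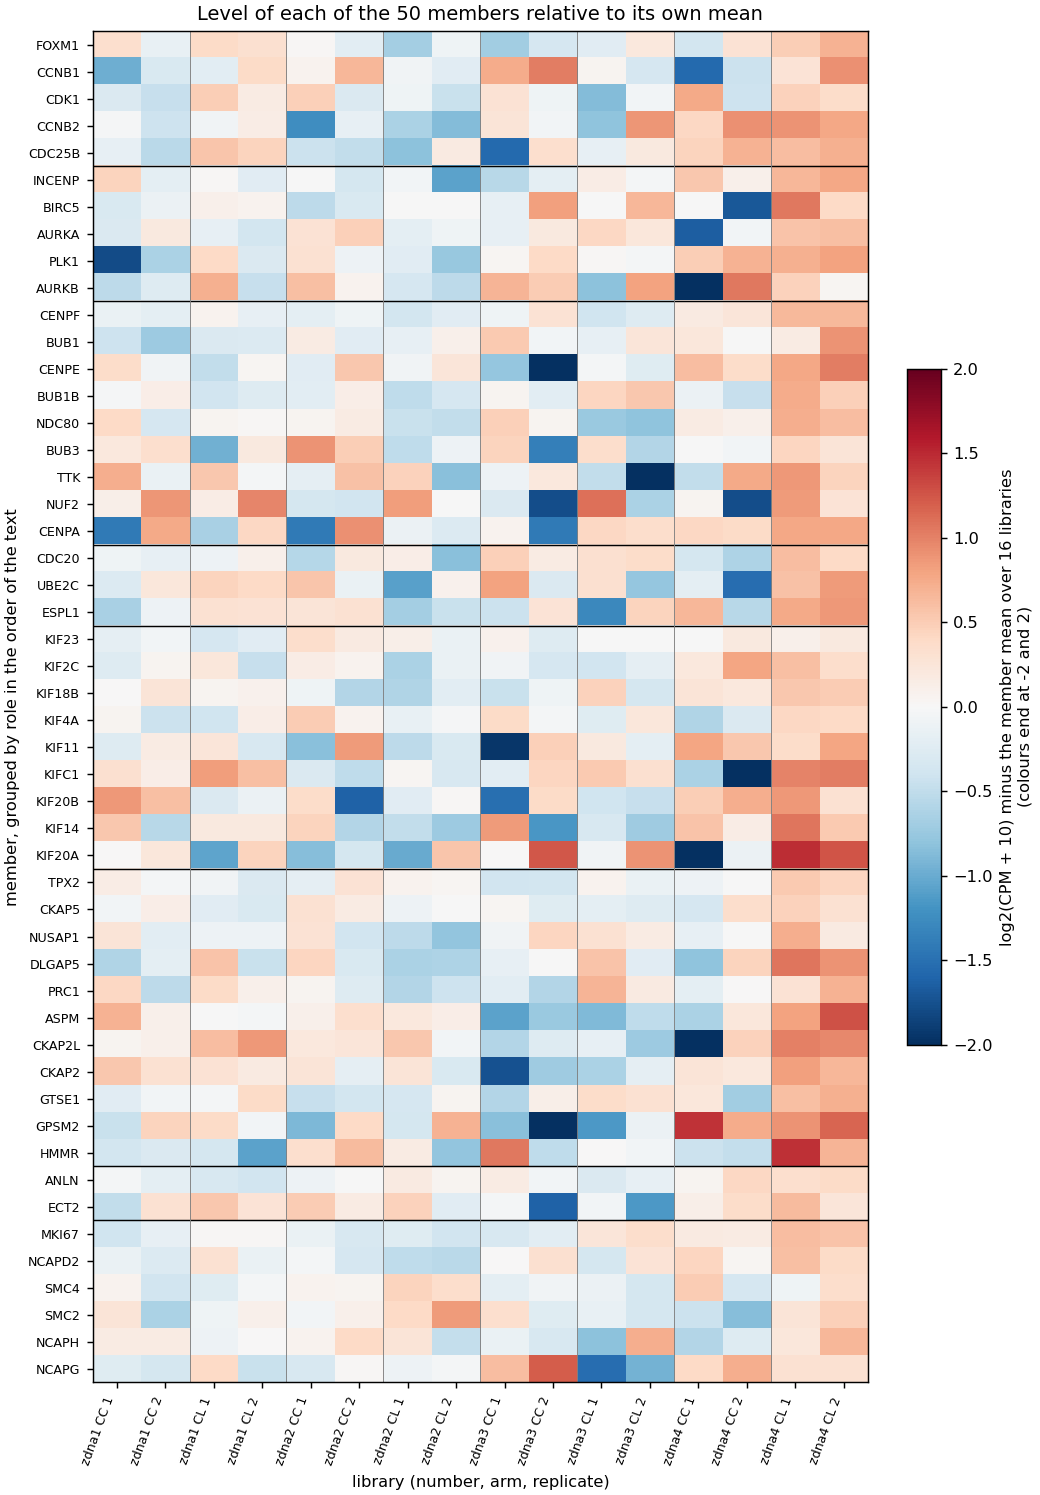
Level of each of the 50 genes (rows, by role) in the 16 libraries (columns), as log2(CPM + 10) minus the gene's own mean; red is above the mean and blue below. The last 2 columns, zdna4 CL, are red for most genes, and 38 of the 50 have their highest group mean there, a count not made over all genes.

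Per length of exon, the members' mean levels ran from 7.04 CPM per kilobase (GPSM2) to 151 (TPX2, which targets Aurora A to spindle microtubules), with a median of 33.4 against 24.1 over all tested genes. After TPX2 the highest per length were CDC20 (146), ANLN (89.6), CCNB1 (86.3), FOXM1 (84.5) and MKI67 (79.5). Counting used no strand, and 11 members share exon bases with a neighbour. The largest shares were 39.2% of GPSM2 (with CLCC1), 35.6% of NCAPG (with LCORL), 12.3% of FOXM1 (with ITFG2), 10.98% of PRC1 (with PRC1-AS1) and 10.1% of HMMR (with HMMR-AS1), and values of these 5 are uncertain for that reason; the other 6 shared under 5% of their bases.

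Differences between groups were tested by limma over all 4632 genes. Between the arms, 0 of the 45 members passed in zdna1 (0.756% of all tested genes did), 0 in zdna2 (0.173%) and 0 in zdna3 (0.0864%). Of the 45, 6, 5 and 4 members lay under an unadjusted p of 0.05 (10.6%, 6.58% and 6.56% of all genes). In each of these numbers edgeR called 0 members (0.993%, 0.194% and 0.0864% of all genes), and so did DESeq2 (0.345%, 0.0648% and 0.0864%). In zdna1 DESeq2 gave no adjusted p for 31 of the 45 members. In zdna4, KIFC1 and CKAP2L were higher in CL (1.17% of all genes differed and 0.907% were higher), and 10 members lay under an unadjusted p of 0.05 (10.4%). There edgeR called KIFC1 alone (1.17% of all genes). DESeq2 called 0 (0.604%), with no adjusted p for 31 of the 45 members. Without zdna4 CC replicate 2 CKAP2L alone passed. In 11 other fits without 1 library KIFC1 alone passed, KIFC1 passed with CCNB1 without zdna4 CL replicate 1, and KIFC1 and CKAP2L both passed without replicate 2 of zdna1 CL or either zdna3 CC library. The members' median difference on the log2 scale was 0.35 in zdna4 (38 of 45 positive) beside a median of 0.08 over all genes. In the others it was 0.16 in zdna1 (29 positive) beside -0.00, -0.21 in zdna2 (14 positive) beside -0.01, and 0.09 in zdna3 (26 positive) beside 0.06. With TMM factors over every gene the zdna4 medians were 0.80 and 0.52, and with library totals 0.44 and 0.17. Averaged over the numbers, KIFC1 alone passed (0.432% of all genes), and the test that the 4 differences are equal called CCNB1 alone (0.864%). In the averaged comparison edgeR did not call KIFC1 and called 1 other member, a mitotic chromosome gene.

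Among the numbers, averaged over the arms, 8 members differed: MKI67, CENPF, NCAPD2, CCNB2, CENPE, FOXM1, PLK1 and ASPM (8.85% of all genes). By edgeR 9 members differed (10.6% of all genes) and by DESeq2 4 (4.81%). Leaving out 1 library lowered the count to 5 (replicate 1 of zdna1 CC or zdna4 CC, replicate 2 of zdna2 CL or zdna3 CC, either replicate of zdna3 CL), 4 (replicate 2 of zdna2 CC) or 3 (replicate 2 of zdna4 CC), and MKI67 passed in each of these fits. Between pairs of numbers 0 members passed for zdna2 against zdna1 (2.5% of all genes), where 9 lay under an unadjusted p of 0.05 (15.5% of all genes), and edgeR and DESeq2 called 0 (2.76% and 0.885%). For that pair DESeq2 gave no adjusted p for 31 of the 45 members. The members that passed were ASPM for zdna3 against zdna1 (4.49%), MKI67 and CENPF for zdna4 against zdna1 (0.691%), MKI67 and ASPM for zdna3 against zdna2 (6.0%), MKI67, CENPF, NCAPD2 and CCNB2 for zdna4 against zdna2 (2.48%), and CENPE, GPSM2 and ASPM for zdna4 against zdna3 (4.75%). These comparisons reuse the same 4 libraries wherever a number recurs. GPSM2 reached the filter only through its zdna4 values. Several calls rested on single libraries. ASPM for zdna3 against zdna1 was lost without any 1 of the zdna3 libraries, zdna1 CC replicate 1 or either zdna1 CL library. For zdna4 against zdna1 none passed without zdna4 CC replicate 1, and MKI67 alone without replicate 2 of zdna4 CC, replicate 1 of zdna1 CC or replicate 2 of zdna1 CL. For zdna4 against zdna2, MKI67 and CENPF were left without zdna4 CC replicate 1, and CCNB2 was also lost without replicate 2 of zdna4 CC or replicate 1 of zdna2 CC. For zdna4 against zdna3 none passed without zdna3 CC replicate 2, CENPE alone without zdna3 CL replicate 1 or zdna4 CC replicate 2, ASPM alone without zdna4 CC replicate 1, and 5 without zdna1 CL replicate 2. For zdna3 against zdna2, MKI67 and ASPM passed together in 1 of the 16 fits without a library, that without zdna1 CC replicate 1, and no member passed without replicate 2 of zdna2 CL, zdna3 CC or zdna4 CL or either zdna3 CL library.

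Since averaging the arms mixes the 2 zdna4 groups, zdna4 was also compared with each other number within an arm, a choice made after the values were seen. In CL, 9 members were higher in zdna4 than in zdna1 (2.2% of all genes differed and 0.972% were higher), 27 than in zdna2 (10.6% and 6.37%) and 5 than in zdna3 (6.71% and 3.37%), and none was lower. All 45 tested members had a positive difference over zdna1 and over zdna3, and 43 over zdna2; the medians were 0.57, 0.91 and 0.58 beside medians of 0.01, -0.00 and 0.01 over all genes. These 3 comparisons share the zdna4 CL libraries, the deepest of the series. In CC, 0 members passed against zdna1 (0.302% of all genes), zdna2 (0.259%) or zdna3 (0.842%), and 4, 5 and 6 lay under an unadjusted p of 0.05 (8.07%, 8.14% and 11.1%). There edgeR called 0 members (0.302%, 0.345% and 1.3% of all genes) and DESeq2 0 (0.194%, 0.324% and 0.777%), with no adjusted p from DESeq2 for 0, 1 and 31 of the 45. The members' medians in CC were 0.21, 0.17 and 0.22 beside -0.09, -0.08 and -0.02 over all genes, and with TMM factors over every gene -0.16, -0.23 and 0.01 beside -0.45, -0.47 and -0.24. In CC 28, 27 and 28 of the 45 members had a positive difference. The zdna4 CC libraries were the shallowest of the series, so a difference of a given size passed less readily there. MKI67, the most abundant member, was at 1119 and 1101 CPM in zdna4 CC and at 747 to 895 CPM in the other CC libraries. Its difference over zdna3 in CC was 0.53 (SE 0.244, adjusted p = 0.394). Without zdna4 CC replicate 2, CKAP2L was called lower in zdna4 than in zdna1 and zdna2, and without replicate 1 KIFC1 was called lower than in zdna1. In each case the zdna4 CC library left had 0 reads of the gene. Whether the differences in CL exceed those in CC was tested only through the equality of the arm differences, in which CCNB1 alone passed.

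Within limma, the counts in CL depended on the weights given to each group for its replicate spread, 2.66 for the zdna4 CL libraries and 0.303 for zdna4 CC. The weights fell in the same order as the groups' read depth, from zdna4 CL, the deepest, to zdna4 CC, the shallowest. A high weight therefore cannot be told apart from greater depth. With equal weights 0 members passed over zdna1, 3 over zdna2 and 3 over zdna3, while all-gene counts went from 102 to 7, from 491 to 59 and from 311 to 115. Without such weights, edgeR called 11, 28 and 6 members (2.27%, 10.2% and 8.03% of all genes) and DESeq2 4, 8 and 2 (0.669%, 2.81% and 3.02%), with no adjusted p from DESeq2 for 25, 3 and 3 of the 45. Leaving out single libraries lowered them to 5 and 3 over zdna1 (without replicate 1 or 2 of zdna1 CL), to 14 and 16 over zdna2 (without replicate 1 or 2 of zdna2 CL), and over zdna3 to 2 and 3 (without replicate 1 or 2 of zdna3 CL) and to 3 without either zdna4 CL library.

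**Figure D4:**
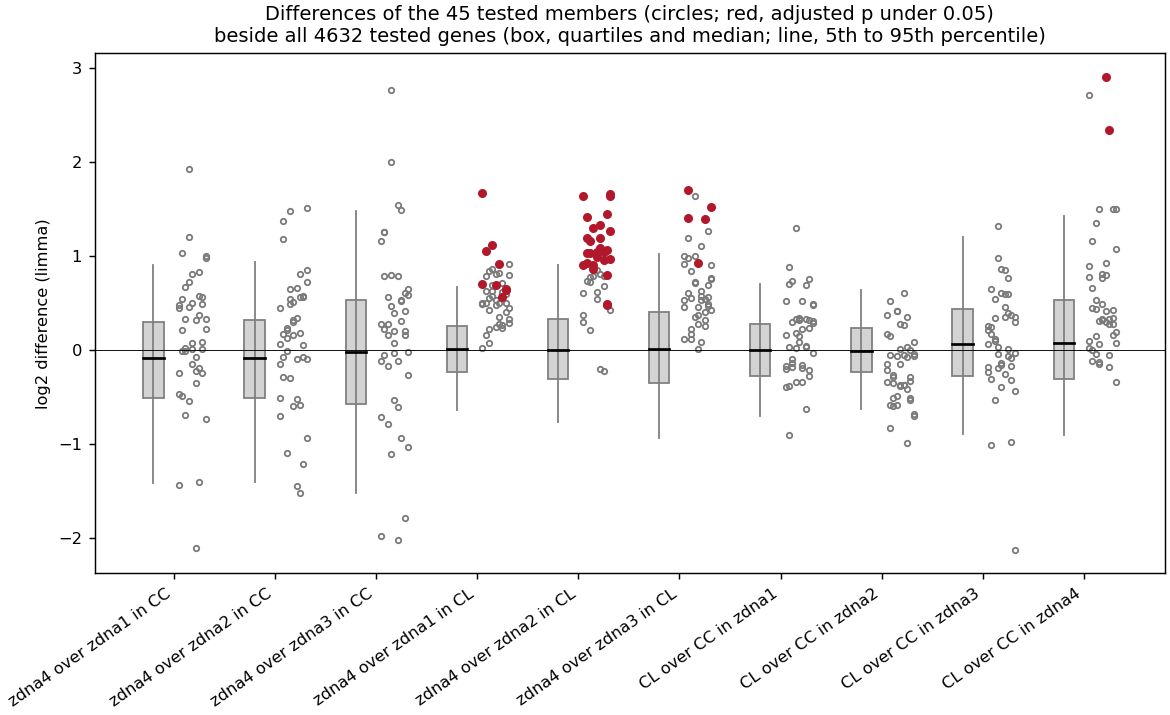
Log2 difference of each of the 45 tested members (circles, red where limma's adjusted p was under 0.05) in 10 comparisons, beside all 4632 tested genes (box, quartiles with the median; line, 5th to 95th percentile). In the zdna4 over zdna1, zdna2 and zdna3 comparisons in CL, 45, 43 and 45 members lie above 0.

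CDK1 with the B-type cyclins, its activating phosphatase CDC25B and the transcription factor FOXM1 make up the first role group. CCNB1, cyclin B1, stood at 81.0 and 135 CPM in zdna1 CC, 145 and 222 in zdna1 CL, 177 and 273 in zdna2 CC, 159.9 and 143 in zdna2 CL, 288 and 353 in zdna3 CC, 177 and 132 in zdna3 CL, 50.8 and 122 in zdna4 CC and 206 and 329 in zdna4 CL. The arms did not overlap in any number: CL was above CC in zdna1 and zdna4 and below CC in zdna2 and zdna3. The differences were 0.76 (SE 0.291), -0.51 (SE 0.295), -0.97 (SE 0.471) and 1.5 (SE 0.470) on the log2 scale for zdna1 to zdna4, none of which passed alone (adjusted p = 0.277, 0.862, 0.730 and 0.0963). Their equality was rejected by limma (adjusted p = 0.0267), edgeR (0.00663) and DESeq2 (0.0480). The call was lost with equal weights (0.0795), a pseudocount of 2 (0.101), no filter (0.315) or without zdna4 (0.145). It was also lost when any 1 of 8 libraries was left out, with adjusted p from 0.0602 to 0.139: replicate 1 of zdna1 CC or zdna4 CC, or replicate 2 of zdna1 CL, zdna2 CC, zdna2 CL, zdna3 CC, zdna3 CL or zdna4 CL.

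Cyclin B2, CCNB2, stood at 72.0 and 52.6 CPM in zdna1 CC, 69.1 and 82.6 in zdna1 CL, 25.3 and 64.2 in zdna2 CC, 43.6 and 35.7 in zdna2 CL, 89.9 and 70.6 in zdna3 CC, 37.9 and 144 in zdna3 CL, 102 and 147 in zdna4 CC and 145 and 133 in zdna4 CL. It was low in zdna2, with no overlap between the 4 zdna2 and the 4 zdna4 libraries, and its zdna3 CL replicates were far apart. Averaged over the arms it was higher in zdna4 than in zdna2 by 1.57 (SE 0.387, adjusted p = 0.0146), and in CL by 1.63 (SE 0.343, adjusted p = 0.000600). FOXM1, the activator of this gene program, stood at 378 and 269 CPM in zdna1 CC, 394 and 375 in zdna1 CL, 304 and 257 in zdna2 CC, 182 and 279 in zdna2 CL, 179.8 and 235 in zdna3 CC, 253 and 348 in zdna3 CL, 229 and 367 in zdna4 CC and 422 and 489 in zdna4 CL. The highest values were those of both zdna4 CL libraries, and both zdna3 CC libraries were among the lowest. Its difference in CL was 1.03 (SE 0.184, adjusted p = 4.17e-05) over zdna2 and did not pass over zdna1 (0.23) or zdna3 (0.55). CDK1 itself stood at 81.0 and 70.2 CPM in zdna1 CC, 145 and 114 in zdna1 CL, 143 and 80.3 in zdna2 CC, 94.5 and 71.3 in zdna2 CL, 126 and 94.1 in zdna3 CC, 50.5 and 96.1 in zdna3 CL, 178 and 73.4 in zdna4 CC and 142 and 133 in zdna4 CL. Both zdna1 CL libraries were above both zdna1 CC libraries, and both zdna4 CL libraries were above those of zdna1 CC, zdna2 CL and zdna3, but CDK1 passed in no comparison. CDC25B ranged from 18.0 to 124 CPM and was higher in zdna4 CL than in zdna2 CL by 1.03 (SE 0.344, adjusted p = 0.0421).

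The kinases and chromosomal passengers drive spindle assembly and correct faulty attachments. PLK1, Polo-like kinase 1, stood at 18.0 and 52.6 CPM in zdna1 CC, 118 and 69.9 in zdna1 CL, 109.7 and 80.3 in zdna2 CC, 72.7 and 47.6 in zdna2 CL, 89.9 and 118 in zdna3 CC, 88.4 and 84.1 in zdna3 CL, 127 and 147 in zdna4 CC and 148 and 159.9 in zdna4 CL. All 4 zdna4 libraries were above the other 12, and zdna1 CC had the lowest group mean. PLK1 differed among the numbers (adjusted p = 0.0486) and was higher in zdna4 CL than in zdna2 CL by 1.30 (SE 0.317, adjusted p = 0.00325). In zdna1 its CL over CC difference was 1.30 (SE 0.375, adjusted p = 0.0955), which did not pass. AURKA, Aurora kinase A, stood at 81.0 and 117 CPM in zdna1 CC, 89.9 and 76.3 in zdna1 CL, 127 and 145 in zdna2 CC, 87.2 and 95.1 in zdna2 CL, 89.9 and 118 in zdna3 CC, 139 and 120.1 in zdna3 CL, 25.4 and 97.8 in zdna4 CC and 155 and 159.9 in zdna4 CL. The zdna4 CL libraries were the highest and a zdna4 CC library, with a single read, the lowest; no comparison passed. INCENP, the scaffold of the chromosomal passenger complex, stood at 189 and 117 CPM in zdna1 CC, 138 and 114 in zdna1 CL, 135 and 104 in zdna2 CC, 131 and 59.4 in zdna2 CL, 89.9 and 118 in zdna3 CC, 152 and 132 in zdna3 CL, 203 and 147 in zdna4 CC and 222 and 239.8 in zdna4 CL. The zdna4 CL libraries did not overlap with the other 14, all of which were lower. The difference in CL over zdna2 was 1.33 (SE 0.262, adjusted p = 0.000201). BIRC5, survivin, ranged from 24.5 to 222 CPM and AURKB from 0 to 73.4 CPM, and BIRC5 passed in no comparison.

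At the kinetochore, CENPF, a large protein of its outer layer, stood at 486 and 468 CPM in zdna1 CC, 559.9 and 477 in zdna1 CL, 464 and 506 in zdna2 CC, 414 and 458 in zdna2 CL, 504 and 659 in zdna3 CC, 404 and 444 in zdna3 CL, 610.1 and 636 in zdna4 CC and 845 and 839 in zdna4 CL. No other library reached the zdna4 CL values, and the zdna4 CC libraries and a zdna3 CC library came next. CENPF was higher in zdna4 CL than in the CL libraries of zdna1 by 0.69 (SE 0.135, adjusted p = 0.000791), zdna2 by 0.99 (SE 0.132, adjusted p = 1.09e-07) and zdna3 by 0.93 (SE 0.174, adjusted p = 0.000132), and with ASPM it was 1 of the 2 members that limma called in all 3. In reads, 451 in zdna4 CL against 69 in zdna3 CL gave a ratio of 1.98 (95% interval 1.54 to 2.59). Between the arms of zdna4 it did not pass (difference 0.33).

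CENPE, the kinesin that carries chromosomes to the spindle equator, stood at 171 and 123 CPM in zdna1 CC, 89.9 and 133 in zdna1 CL, 109.7 and 193 in zdna2 CC, 124 and 155 in zdna2 CL, 71.9 and 23.5 in zdna3 CC, 126 and 108 in zdna3 CL, 203 and 171 in zdna4 CC and 229 and 275 in zdna4 CL. Highest were the zdna4 CL libraries and lowest the zdna3 CC libraries, at 4 and 1 reads. It was higher in zdna4 CL than in zdna1 CL by 1.12 (SE 0.270, adjusted p = 0.00996) and, averaged over the arms, higher in zdna4 than in zdna3 by 1.5 (SE 0.358, adjusted p = 0.00581). BUB1B, the checkpoint protein BUBR1, ranged from 94.5 to 204 CPM outside zdna4 CL, where it was at 239 and 195 CPM, and passed over zdna1 CL and zdna2 CL. NDC80, which grips microtubules at the kinetochore, was at 193 and 178 CPM in zdna4 CL and at 60.05 to 162 CPM elsewhere, and passed over zdna2 CL and zdna3 CL. BUB1 and BUB3 passed in no comparison, and CENPA, NUF2 and TTK, at mean levels of 20.1, 29.6 and 45.4 CPM, were too low to test.

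The anaphase machinery has 3 members here. CDC20, the activator of the anaphase-promoting complex, stood at 216 and 205 CPM in zdna1 CC, 214 and 248 in zdna1 CL, 152 and 265 in zdna2 CC, 254 and 125 in zdna2 CL, 324 and 259 in zdna3 CC, 290.5 and 300.2 in zdna3 CL, 178 and 147 in zdna4 CC and 358 and 306 in zdna4 CL. A zdna4 CL library was highest, but zdna3 CC overlapped with zdna4 CL, and the zdna4 CC libraries were among the low ones. CDC20 was higher in zdna4 CL than in zdna2 CL by 0.91 (SE 0.213, adjusted p = 0.00217). UBE2C, the ubiquitin-conjugating enzyme of that complex, and ESPL1, separase, were at 139 and 169 CPM and at 135 and 147 CPM in zdna4 CL, and both also passed over zdna2 CL (1.27 and 1.42).

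Among the 9 kinesins, KIFC1, which slides and bundles spindle microtubules towards their minus ends, differed most between the arms of zdna4. It stood at 108 and 93.6 CPM in zdna1 CC, 159 and 133 in zdna1 CL, 67.5 and 56.2 in zdna2 CC, 87.2 and 65.4 in zdna2 CL, 71.9 and 118 in zdna3 CC, 126 and 108 in zdna3 CL, 50.8 and 0 in zdna4 CC and 177 and 182 in zdna4 CL. The zdna4 CC libraries, with 2 and 0 reads, were the lowest of all and the zdna4 CL libraries, with 55 and 41 reads, the highest. The reads gave a ratio of 7.19 (95% interval 1.94 to 60.2), and the fitted difference, which depends on the pseudocount, was 2.91 (SE 0.609, adjusted p = 0.00513). In zdna1 both CL libraries were also above both CC libraries. Averaged over the numbers its difference was 1.01 (SE 0.254, adjusted p = 0.0446), a call that was kept in 1 of the 16 fits without a library, that without zdna4 CC replicate 1. It was lost without zdna4, with equal weights, with no filter, with a pseudocount of 2, with a replicate block and by edgeR (adjusted p = 0.0972), and DESeq2 gave no adjusted p for it. Within zdna4 these differences stand beside the low depth and the olfactory receptor reads of the CC libraries, whose part in them was not tested.

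KIF20A, which works at the midzone in cytokinesis, was at 168 and 142 CPM in zdna4 CL, above the 0 to 141 CPM elsewhere, and was higher than in zdna1 CL by 1.67 (SE 0.437, adjusted p = 0.0238). In zdna4 CC it had 0 and 2 reads, and its difference between the arms did not pass (adjusted p = 0.0795). KIF23, the most abundant kinesin here and part of the centralspindlin complex, stood at 225 and 246 CPM in zdna1 CC, 200.5 and 216 in zdna1 CL, 329 and 289 in zdna2 CC, 276 and 232 in zdna2 CL, 269.8 and 212 in zdna3 CC, 253 and 252 in zdna3 CL, 254 and 293 in zdna4 CC and 274 and 293 in zdna4 CL. Both zdna2 CC libraries were above those of zdna1, zdna2 CL and zdna3 and overlapped with zdna4, and KIF23 passed in no comparison. KIF11, KIF14, KIF18B, KIF20A, KIF2C and KIFC1 passed over zdna2 CL, by 0.91 (KIF2C) to 1.64 (KIF20A), and KIF4A and KIF20B passed in no comparison.

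The spindle proteins were the largest role group. ASPM, which focuses spindle poles, stood at 207 and 135 CPM in zdna1 CC, 124 and 121 in zdna1 CL, 135 and 161 in zdna2 CC, 145 and 137 in zdna2 CL, 54.0 and 70.6 in zdna3 CC, 63.1 and 84.1 in zdna3 CL, 76.3 and 147 in zdna4 CC and 226 and 315 in zdna4 CL. Both zdna4 CL libraries were above the other 14, and the zdna3 libraries and a zdna4 CC library were low. ASPM was higher in zdna4 CL than in zdna1 CL by 1.06 (SE 0.267, adjusted p = 0.0169), than in zdna2 CL by 0.93 (SE 0.262, adjusted p = 0.0128) and than in zdna3 CL by 1.70 (SE 0.343, adjusted p = 0.000464). Averaged over the arms, zdna3 was lower than zdna1 (-0.96 (SE 0.294, adjusted p = 0.0444)) and than zdna2 (-0.92 (SE 0.296, adjusted p = 0.0484)).

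CKAP2L, a microtubule-associated protein of the spindle, stood at 90.0 and 93.6 CPM in zdna1 CC, 138 and 165 in zdna1 CL, 101 and 104 in zdna2 CC, 131 and 83.2 in zdna2 CL, 54.0 and 70.6 in zdna3 CC, 75.8 and 48.0 in zdna3 CL, 0 and 122 in zdna4 CC and 184 and 178 in zdna4 CL. The zdna4 CL libraries were the highest, and the zdna4 CC libraries, with 0 and 5 reads, were far apart. Between the arms of zdna4 the ratio of reads was 2.91 (95% interval 1.20 to 9.15) and the fitted difference 2.34 (SE 0.636, adjusted p = 0.0495); edgeR did not call it (adjusted p = 0.276). TPX2 stood at 576 and 503 CPM in zdna1 CC, 491 and 419.5 in zdna1 CL, 456 and 634 in zdna2 CC, 545 and 529 in zdna2 CL, 396 and 400.1 in zdna3 CC, 543 and 468 in zdna3 CL, 483 and 514 in zdna4 CC and 745 and 702 in zdna4 CL. Again the zdna4 CL libraries were above all others, and TPX2 was higher there than in zdna1 CL by 0.65 (SE 0.141, adjusted p = 0.00263) and than in zdna2 CL by 0.48 (SE 0.138, adjusted p = 0.0158). CKAP5, the microtubule polymerase chTOG, stood at 405 and 462 CPM in zdna1 CC, 359 and 337 in zdna1 CL, 523 and 474 in zdna2 CC, 392 and 416 in zdna2 CL, 432 and 353 in zdna3 CC, 366 and 348 in zdna3 CL, 330.5 and 538 in zdna4 CC and 580.3 and 519.6 in zdna4 CL. Its zdna4 CC replicates spanned most of the range, and it passed over zdna1 CL (0.64) and zdna2 CL (0.49).

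GPSM2, which anchors the spindle to the cell cortex, stood at 27.0 and 58.5 CPM in zdna1 CC, 55.3 and 38.1 in zdna1 CL, 16.9 and 56.2 in zdna2 CC, 29.1 and 71.3 in zdna2 CL, 18.0 and 0 in zdna3 CC, 12.6 and 36.0 in zdna3 CL, 127 and 73.4 in zdna4 CC and 83.8 and 102 in zdna4 CL. All 4 zdna4 libraries were above the other 12. Averaged over the arms it was higher in zdna4 than in zdna3, where 5 reads in all 4 libraries were set against 57, a ratio of 4.83 (95% interval 1.95 to 15.4). Its mean over the 16 libraries, 50.3 CPM, was just over the 50 CPM needed for testing. Group means were 100 and 93.0 CPM in zdna4 CC and CL and 8.99 to 50.2 CPM elsewhere. It was therefore tested only through its zdna4 values, and the filter favoured a call of higher in zdna4. This gene shares 39.2% of its exon bases with CLCC1 on the hg19 annotation, and its reads cannot be told apart from those of that gene there. DLGAP5, NUSAP1 and PRC1 passed over zdna2 CL by 1.66, 1.16 and 1.04. CKAP2 and GTSE1 had both zdna4 CL libraries above all others but passed in no comparison, and HMMR, at a mean of 43.7 CPM, was not tested.

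ANLN, anillin, which links the contractile ring to the membrane in cytokinesis, stood at 405 and 363 CPM in zdna1 CC, 332 and 318 in zdna1 CL, 388 and 417 in zdna2 CC, 472 and 434 in zdna2 CL, 468 and 400.1 in zdna3 CC, 341 and 372 in zdna3 CL, 432 and 563 in zdna4 CC and 529 and 546 in zdna4 CL. The zdna4 CL libraries and a zdna4 CC library were the highest and zdna1 CL the lowest, and ANLN was higher in zdna4 CL than in zdna1 CL by 0.70 (SE 0.149, adjusted p = 0.00205). ECT2, the exchange factor that activates RhoA at the cleavage furrow, ranged from 23.5 to 148 CPM and passed in no comparison.

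**Figure D5:**
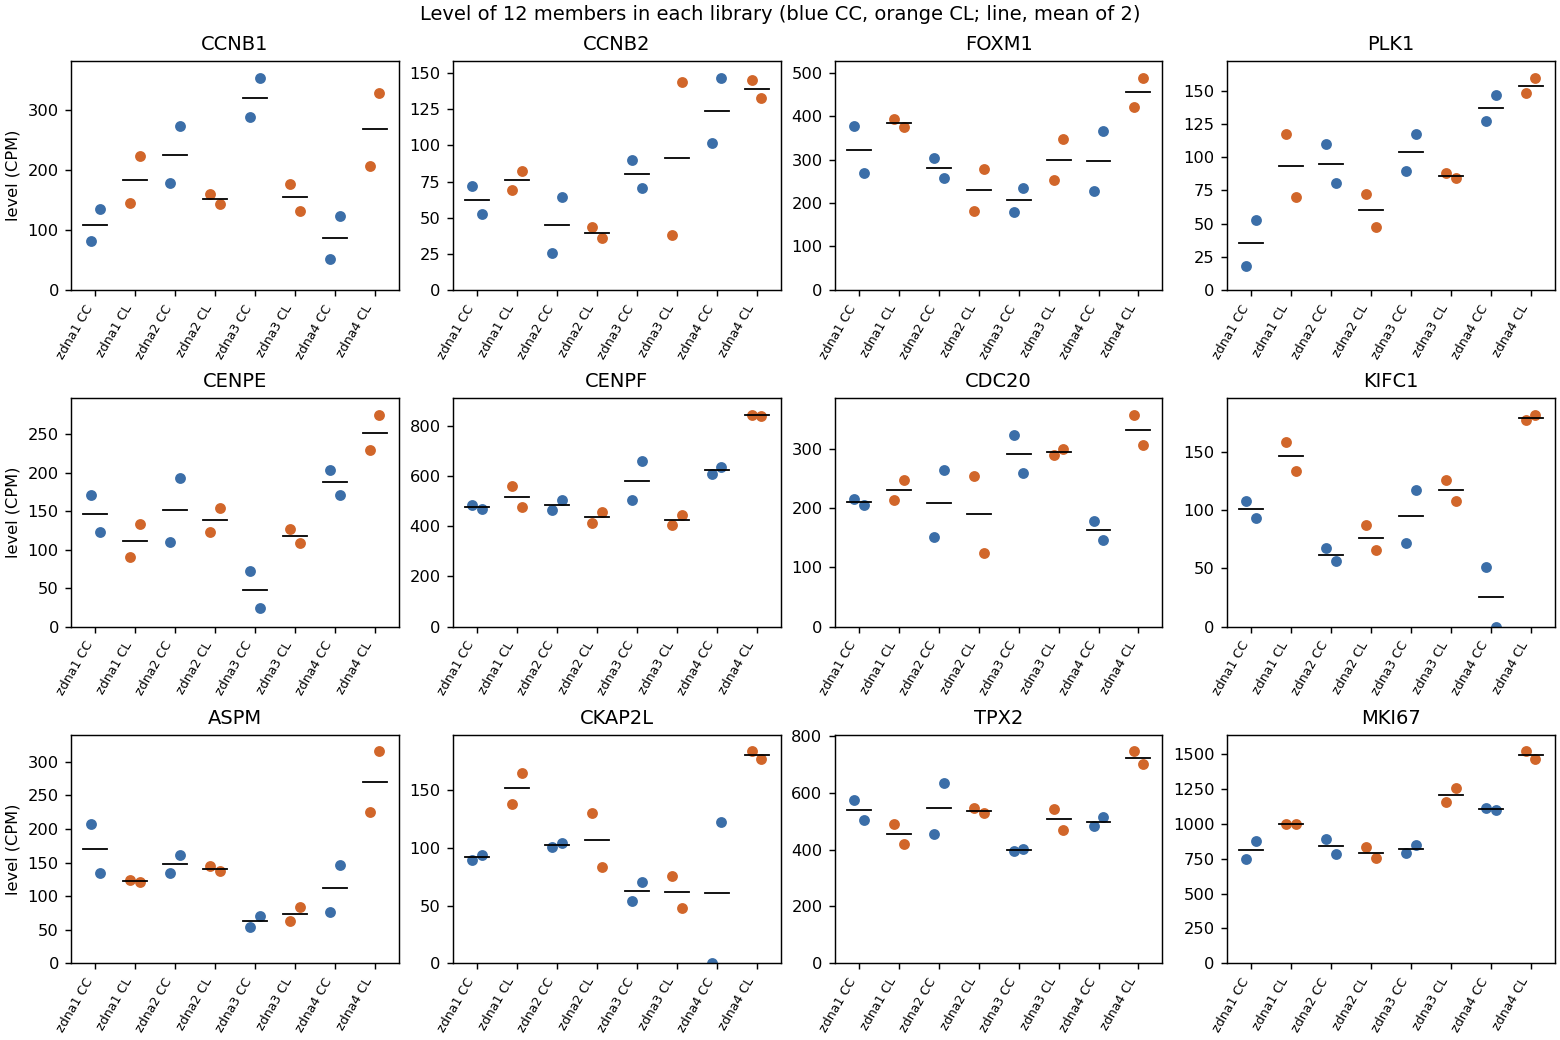
Level in CPM of 12 of the genes in each of the 16 libraries, by number and arm; points are libraries (blue CC, orange CL), lines are means of 2, and every axis starts at 0. For MKI67, CENPF, TPX2, FOXM1, ASPM, CENPE, PLK1, KIFC1 and CKAP2L both zdna4 CL libraries are the highest points, whereas CCNB1 is highest in a zdna3 CC library at 353 CPM.

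Among the genes of the mitotic chromosome, MKI67 encodes Ki-67, the coat protein of mitotic chromosomes and the usual stain for proliferating cells. It lies at chr10:129894925-129924687 on the minus strand in hg19 and was the most abundant member, with a mean of 1011 CPM. MKI67 stood at 747 and 877 CPM in zdna1 CC, 1002 and 998 in zdna1 CL, 895 and 787 in zdna2 CC, 836 and 755 in zdna2 CL, 791 and 847 in zdna3 CC, 1162 and 1261 in zdna3 CL, 1119 and 1101 in zdna4 CC and 1522 and 1470.0 in zdna4 CL. Both zdna4 CL libraries were above the other 14, the zdna3 CL and zdna4 CC libraries came next, and zdna1 CC, zdna2 and zdna3 CC were the lowest. It differed among the numbers (adjusted p = 2.23e-05). In CL zdna4 exceeded zdna1 by 0.57 (SE 0.105, adjusted p = 0.000270) and zdna2 by 0.96 (SE 0.103, adjusted p = 3.80e-10), while its excess over zdna3 did not pass. Over zdna2 and averaged over the arms zdna3 was higher by 0.37 (SE 0.116, adjusted p = 0.0456), a direction that turned to -1.15 on the deposited scale. From reads, 803 in zdna4 CL against 242 in zdna2 CL gave a ratio of 1.90 (95% interval 1.64 to 2.20).

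The condensin genes, whose products compact chromosomes, were less uniform. NCAPD2, a subunit of condensin I, stood at 324 and 292 CPM in zdna1 CC, 442 and 324 in zdna1 CL, 346 and 281 in zdna2 CC, 247 and 244 in zdna2 CL, 359.7 and 447 in zdna3 CC, 278 and 432 in zdna3 CL, 483 and 367 in zdna4 CC and 548 and 466 in zdna4 CL. It was lowest in zdna2 CL and highest in zdna4 CL and a zdna4 CC library, and averaged over the arms was higher in zdna4 than in zdna2 by 0.82 (SE 0.187, adjusted p = 0.00743). SMC4, a subunit of both condensins, stood at 261 and 187 CPM in zdna1 CC, 207 and 242 in zdna1 CL, 262 and 257 in zdna2 CC, 342 and 321 in zdna2 CL, 216 and 235 in zdna3 CC, 227 and 192 in zdna3 CL, 356 and 196 in zdna4 CC and 232 and 319.7 in zdna4 CL. Both zdna2 CL libraries were above all others apart from a zdna4 CC library, but SMC4 passed in no comparison. SMC4 and its partner SMC2 were the 2 members without a positive difference of zdna4 CL over zdna2 CL (-0.22 and -0.20). NCAPG passed over zdna3 CL, where 3 reads in both libraries gave a ratio of 3.84 (95% interval 1.22 to 19.5), and NCAPH passed in no comparison.

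Of 84 other mitotic genes, 56 were tested. Their summed level was 10479 ± 299 CPM in zdna4 CL and 6867 ± 76.7 CPM in zdna4 CC (n = 2), with group means of 7479 to 8524 CPM elsewhere, a CL over CC ratio of 1.53 in zdna4. Between the arms of zdna4, 3 rose (TOP2A, RACGAP1 and KPNA2) and 0 fell, against 0.907% of all tested genes that rose. In CL 5 were higher in zdna4 than in zdna1 (0.972% of all genes were), 16 than in zdna2 (6.37%) and 10 than in zdna3 (3.37%), with 0 lower. There edgeR called 5, 17 and 7 of them and DESeq2 1, 5 and 2. TOP2A, the topoisomerase that untangles chromosomes, stood at 387 and 479.6 CPM in zdna1 CC, 525 and 458 in zdna1 CL, 566 and 586 in zdna2 CC, 399.6 and 428 in zdna2 CL, 432 and 541 in zdna3 CC, 467 and 276 in zdna3 CL, 330.5 and 416 in zdna4 CC and 919 and 879 in zdna4 CL. Both zdna4 CL libraries were above the other 14. The TOP2A difference between the arms of zdna4 was 1.16 (SE 0.279, adjusted p = 0.0258), and its excess in CL was 0.85 (SE 0.149, adjusted p = 0.000125) over zdna1, 1.15 (SE 0.146, adjusted p = 2.57e-08) over zdna2 and 1.25 (SE 0.192, adjusted p = 3.52e-06) over zdna3. TOP2A (adjusted p = 0.00901) and KPNA2 (0.00297), a nuclear import receptor, also passed the test of unequal arm differences.

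The S-phase genes did not show the same order of groups. The sum over 25 of them was 3487 ± 6.88 CPM in zdna4 CL, below 3721 ± 174 CPM in zdna1 CL and 3662 ± 255 CPM in zdna1 CC, and lowest in zdna4 CC at 2841 ± 63.3 CPM. Between the arms of zdna4 only TYMS, thymidylate synthase, of 20 tested S-phase genes passed, where edgeR and DESeq2 called none. There the S-phase genes also leaned towards CL, with 14 of the 20 differences positive. Their median was 0.28, beside 0.08 over all genes and 0.35 for the members. In CL limma, edgeR and DESeq2 called 0 of the 20 over zdna1 or zdna3, with 1 in each under an unadjusted p of 0.05, and UHRF1 passed over zdna2. Among the numbers POLA1 and CDT1 of this list differed. The sum over 20 regulators of G2/M transcription was 1849 ± 148 CPM in zdna4 CL and 1808 ± 67.1 in zdna4 CC, a ratio of 1.02. Of the 12 regulators tested, CDKN1A, the CDK inhibitor p21, stood at 333 and 281 CPM in zdna1 CC, 339 and 343 in zdna1 CL, 245 and 209 in zdna2 CC, 233 and 291 in zdna2 CL, 234 and 141 in zdna3 CC, 114 and 204 in zdna3 CL, 432 and 245 in zdna4 CC and 142 and 204 in zdna4 CL. Its level in zdna4 CL was below zdna1 CL (-0.97 (SE 0.209, adjusted p = 0.00271)) and within the range of zdna3. MYBL2, the activating partner of MuvB, was higher in zdna4 CL than in zdna2 CL by 0.40 (SE 0.136, adjusted p = 0.0442) in limma alone, since edgeR and DESeq2 called 0 regulators there. At 571 and 533 CPM in zdna4 CL it was below its zdna1 CL values, 588 and 636 CPM. A test of the members against these lists was not made.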

How the data were processed

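RNA-seq of 16 U2OS libraries was analysed, 2 in each of 8 groups. The tools named, per the submitters' processing notes, are the trimmer Trim Galore 0.6.6, the aligner STAR and bedtools 2.29.2, beside the genomes hg19 and dm6. Per the file headers, the authors counted paired reads over exons by gene with featureCounts 2.0.1, with no strand option, on hg19 plus a contig for the number of the library. The deposited values are a signal: within each library they are whole reads times 1 constant, and the headers' path contains the word spikein, while how the constant was obtained is not given in the sources used here. Dividing by the step gave whole reads (within 0.1) for at least 99.98% of values. The contig was left out, and CPM were taken over 28207 human genes.

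limma 3.58.1 (R 4.3.3) was fitted to log2(CPM + 10) with TMM factors for 4632 genes averaging 50 CPM or more, as 8 group means with weights per group and a mean-variance trend. Tests were two-sided, with Benjamini-Hochberg adjustment over all tested genes at 0.05. Every adjusted p is from limma unless edgeR 4.0.16 (quasi-likelihood) or DESeq2 1.42.0, run on the recovered reads, is named. At given levels the added 10 lowers the fold difference of low genes. Fitted differences average the log2 values of libraries, so they can exceed the log2 ratio of pooled reads where 1 library is at 0. There were 13 planned comparisons, and 6 within-arm comparisons and the fits of CC libraries alone were chosen after seeing the data. Levels by library are given for members called in any comparison, the 10 most abundant, the most abundant of each role, and MKI67, CCNB1, CDK1, PLK1, AURKA and FOXM1. Members called in the within-arm comparisons alone were described after their values were seen. The members, the 84 other mitotic genes, 20 regulators, 25 S-phase genes and both marker lists were chosen with earlier results of these data known. Alternatives changed the test, scaling, filter, pseudocount, weights, libraries and replicate block. The scripts were tested on simulated data.

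Replicates of zdna1 CC, zdna2 CL and zdna3 CC did not differ beyond sampling noise by a chi-square test over genes (p = 0.0992, 0.281 and 0.744). In the other groups the p of this test ran from 0.00217 (zdna4 CC) to 0.0480 (zdna2 CC). Over the members alone it was 0.0353 in zdna4 CL and 0.151 to 0.997 elsewhere, so there the members' replicate spread was not told apart from sampling noise. Because the share of contig reads differed within each of the 8 pairs (Fisher's exact p at most 0.00183) and the depths differ, each was kept as 2 libraries. Promoter windows are RefSeq's on GRCh38.p14, matched by symbol, while positions in hg19 are those of the files, and the builds were not mixed.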

Additional observations from a re-analysis of the deposited data

Results flagged for a closer look

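CCNB1, cyclin B1, is the 1 member for which the difference between arms itself differed among the 4 numbers, by limma's test of equal differences (adjusted p = 0.0267). CL was above CC in both replicates of zdna1 (0.76) and zdna4 (1.5) and below CC in both replicates of zdna2 (-0.51) and zdna3 (-0.97), as log2 differences. The highest single value was in a zdna3 CC library, at 353 CPM. The adjusted p over the alternatives ran from 0.00393 (TMM factors over every gene) to 0.315 (no filter), and no cause of the difference was tested.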

How the results depend on the processing

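On the deposited scale the counts of members called by limma were 9 for CL over CC in zdna3 (0 in CPM), 5 in zdna4, 15 averaged over the numbers, 8 for unequal arm differences, 44 among the numbers, 1 for zdna2 over zdna1, 44 lower for zdna3 over zdna1, 43 lower for zdna3 over zdna2, 0 for zdna4 over zdna1, 43 for zdna4 over zdna3, and 34 in CC and 45 in CL for zdna4 over zdna3. Beside these stand the highest counts of all genes over the alternatives, each of which may come from a setting other than the deposited scale. The main fit tested 4632 genes. The highest counts were 1049 for CL over CC in zdna3, 439 in zdna4, 1019 averaged and 337 for unequal differences. They were 168 for zdna2 over zdna1 and 147 for zdna4 over zdna1. Among the numbers 4386 was reached, with 4421 for zdna3 over zdna1 and 4269 for zdna3 over zdna2. For zdna4 over zdna3 it was 3832, with 2503 in CC and 3693 in CL. Counts near 45 members can therefore not be taken as particular to the members. On the deposited scale MKI67 in zdna3 over zdna2 reversed to -1.15. The summed CL over CC ratios became 1.22, 0.908, 1.88 and 1.74 for zdna1 to zdna4. The zdna4 ratio was 1.31 over tested-gene reads and 1.35 with TMM-scaled library sizes, and the zdna3 ratio 0.979 without MKI67. The counts that follow are of members alone, without the all-gene count of the same setting, so none is read as particular to the members. Over the alternatives all-gene counts ran from 13 to 439 for the arms of zdna4 and from 63 to 4386 among the numbers. For zdna4 over zdna1, zdna2 and zdna3 in CL they ran from 7 to 108, 59 to 691 and 115 to 3693. With TMM factors over every gene the median difference over all genes in zdna4 rose as well. With TMM factors over every gene the counts were 15 for the arms of zdna4, 3 averaged, 2 for unequal differences, 2 for zdna3 over zdna1, 1 for zdna4 over zdna1, 15 for zdna4 over zdna3 in CL, and 1 in CC, lower in zdna4, for zdna4 over each of zdna1, zdna2 and zdna3. Library totals gave 2 for zdna3 over zdna1 and 1 each for zdna4 over zdna1 and zdna3 over zdna2. Without weights the counts were 0 averaged, 0 for unequal differences, 2 for zdna3 over zdna1, 8 for zdna4 over zdna3, 0, 3 and 3 in CL and 2, 1 and 6 in CC for zdna4 over zdna1, zdna2 and zdna3. DESeq2 called 0 for the arms of zdna4, 0 averaged, 4 among the numbers, 0 for zdna3 over zdna1, 0 for zdna3 over zdna2 and 4, 8 and 2 in CL. edgeR called 1 for the arms of zdna4, 0 for zdna3 over zdna1, 1 for zdna3 over zdna2 and 5 for zdna4 over zdna3. A filter at 20 CPM gave 4 for the arms of zdna4, 2 averaged and 1 each for zdna4 over zdna1 and zdna3 over zdna2, and at 100 CPM 1 for zdna2 over zdna1 and 8 for zdna4 over zdna3 in CL. With no filter, which adds genes to the adjustment, the counts were 1 for the arms of zdna4, 0 for unequal differences, 0 among the numbers, 0 for zdna4 over zdna1, zdna2 and zdna3 alike, 1 for zdna3 over zdna2, and 3, 9 and 3 in CL. A pseudocount of 2 gave 1 for the arms of zdna4, 0 averaged, 0 for unequal differences, 5 among the numbers, 0 for zdna3 over zdna1, 1 for zdna4 over zdna1 and 0 for zdna3 over zdna2, and a pseudocount of 25 gave 1 for the arms of zdna4 and 5 for zdna4 over zdna3. With zdna4 left out, 0 passed averaged and for unequal differences, and with the zdna4 libraries alone 0 between its arms. CL libraries alone gave 24 among the numbers, 1, 0 and 9 for zdna2, zdna3 and zdna4 over zdna1, 1 for zdna3 over zdna2 and 27 for zdna4 over zdna2. CC libraries alone, chosen after seeing the data, gave 1 among the numbers and 0 for zdna3 and zdna4 over zdna1, for zdna3 and zdna4 over zdna2 and for zdna4 over zdna3. Apart from the constructions named, the cause was not tested.

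Leaving out each library in turn gave 0 to 1, 0 to 0, 0 to 0 and 1 to 2 members for the arms of zdna1 to zdna4, 0 to 1 averaged, 0 to 2 for unequal differences and 3 to 8 among the numbers. For zdna2 over zdna1 it gave 0 to 1, zdna3 over zdna1 0 to 2, zdna4 over zdna1 0 to 2, zdna3 over zdna2 0 to 2, zdna4 over zdna2 2 to 5 and zdna4 over zdna3 0 to 5. For zdna4 over zdna1, zdna2 and zdna3 the ranges were 3 to 9, 14 to 28 and 2 to 6 in CL and 0 to 1, 0 to 1 and 0 to 0 in CC. The summed ratios ranged from 1.03 to 1.09, 0.875 to 0.891, 1.01 to 1.05 and 1.41 to 1.48. With 1 library of a group left, that library is assumed to vary like the others. Over 28 pairs of groups, the deviations of same-numbered replicates correlated between -0.0195 and 0.0431, so the numbers were not taken to pair the samples. With a replicate block the count was 1 for the arms of zdna4, 0 averaged and 0 for zdna3 over zdna2, and within 1.5 times in the other 16 comparisons. Of 1993 values of single genes under alternatives, 1600 kept their direction and their call (or had no adjusted p from DESeq2), 392 kept the direction without the call and 1 reversed. Depth limits the low members: 1 read in the shallowest library is 25.4 CPM.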
